A study of Mus musculus with 6 samples.

Results

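The canonical histone gene clusters were followed on 6 arrays, 3 of mouse embryonic stem (ES) cells and 3 of epiblast stem cells (EpiSCs). The members were the genes whose name on the array joins a histone cluster number to a class (Hist1h1e, for example). This rule was met by 34 of 27962 named genes, read by 44 of the 41174 gene probes: 8 probes in class H1, 15 in H2A, 10 in H2B, 3 in H3 and 8 in H4. By cluster, 30 probes lie in Hist1, 7 in Hist2, 5 in Hist3 and 2 in Hist4.

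The mES group held lines ESF122 (replicate 1), ESF175/1 (replicate 2) and a line given as ESF58/2 in one label and as ESF58/1 in another (replicate 3). The EpiSC group held line EpiSC-5 (replicate 1) and line EpiSC-7 at passage 20 (replicate 2) and at passage 25 (replicate 3), so its 3 arrays come from 2 lines. All cultures grew on irradiated mouse embryonic fibroblasts in DMEM with 15% KSR, BME, NEAA and L-glutamine. LIF was added for the mES lines and FGF2 for the EpiSC lines, so cell type and growth factor cannot be told apart. The series describes 3 biological replicates per cell type, and p-values here measure the spread between these arrays.

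Canonical histones are the proteins that package newly made DNA: H2A, H2B, H3 and H4 form the nucleosome core, and H1 binds the DNA that links nucleosomes. Their genes sit in clusters of near-identical copies and are transcribed mainly in S phase, under the coactivator NPAT. Most of their messages end in a stem-loop, bound by SLBP, in place of a poly(A) tail, although some cluster genes can also make polyadenylated forms. The labels name an Agilent labelling kit and do not say how the RNA was primed. A kit that primes at poly(A) would read only the polyadenylated forms, and whether that was so here was not tested.

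Values are log2 signals minus the 75th percentile of their own array, here called scaled signals, so 0 is the brightness of the probe at that percentile. A difference is EpiSC minus mES on this log2 scale, with its standard error (SE) from limma, a linear model fitted to each probe. A probe passed the test if its p-value was under 0.05 after Benjamini-Hochberg adjustment across the 29552 probes tested. Scaled signals are compared between arrays for 1 probe and not between probes.

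Median signals of the 6 arrays ran from 74.6 to 126, between 66.3% and 75.4% of the probes were well above background, and 0 spots were saturated. All 6 ES cell markers fixed for a check of the labels were lower in EpiSCs and all 6 EpiSC markers were higher, while Pou5f1, Sox2 and Nanog, which both cell types express, did not pass the test. Markers of fibroblasts, the feeder cells, were well above background on all arrays that gave a value (Col1a2 has none on mES replicate 3): of 18, 2 were higher in EpiSCs (Acta2, in 3 of 4 probes, and Tagln) and 0 lower. Their summed signal, relative to each array's 75th percentile, ran from 30.5 to 132 in mES and from 69.1 to 171 in EpiSC. mES replicate 2 and EpiSC replicate 3 were the lowest arrays of their groups. In whole cultures, fewer cells of a type and less RNA per cell cannot be told apart. The arrays lay on 4 slides, and each slide held 1 group only.

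Of the 44 histone probes, 36, for 31 genes, were tested. The filter asked for a signal well above background throughout 1 of the groups, and all 36 met it on all 6 arrays. The 8 others were 2 of the 3 probes for Hist1h1d, the only probes for Hist1h2ac and Hist1h2be, both probes for Hist2h2aa2, 1 of 2 for Hist1h2bc and 1 of 2 for Hist4h4. None of these 8 was well above background on any mES array. One Hist1h1d probe, the Hist1h2ac probe and the Hist1h2bc probe were well above background on 1 EpiSC array each.

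Few histone probes differed between the 2 cell types by more than the spread of the arrays. One of the 36 probes was higher in EpiSCs, Hist3h2ba, and 0 were lower. Over all probes tested, 26.0% passed the test, 11.8% higher and 14.3% lower in EpiSCs. At an unadjusted limma p under 0.05, 5 histone probes were counted, against 41.3% of all probes. The 2 groups of arrays did not overlap for 6 histone probes, 4 higher and 2 lower, against 48.0% of all probes (19.9% higher and 28.1% lower). At least 2-fold apart were 3 histone probes (8.33%), against 23.4% of all.

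The median difference over the 36 probes was -0.37, with a range of -1.30 to 2.19, and over all probes it was -0.11. Below 0 were 28 of 36 histone probes, and 16642 of the 29552 probes in all. This histone count ran from 21 to 31 over the alternatives with 36 probes, and was 23 under median scaling. Histone probes also spread more between arrays of a group: the median SE was 0.32 for histone probes and 0.24 for all. The 95% interval of the difference lay within 2-fold in either direction for 12 of 36 histone probes and for 11718 probes in all, so for most histone genes a 2-fold change is not excluded by these 6 arrays. Leaving out EpiSC replicate 3 moved the histone median to -0.09, and leaving out EpiSC replicate 2 moved it to -0.63.

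**Figure D1:**
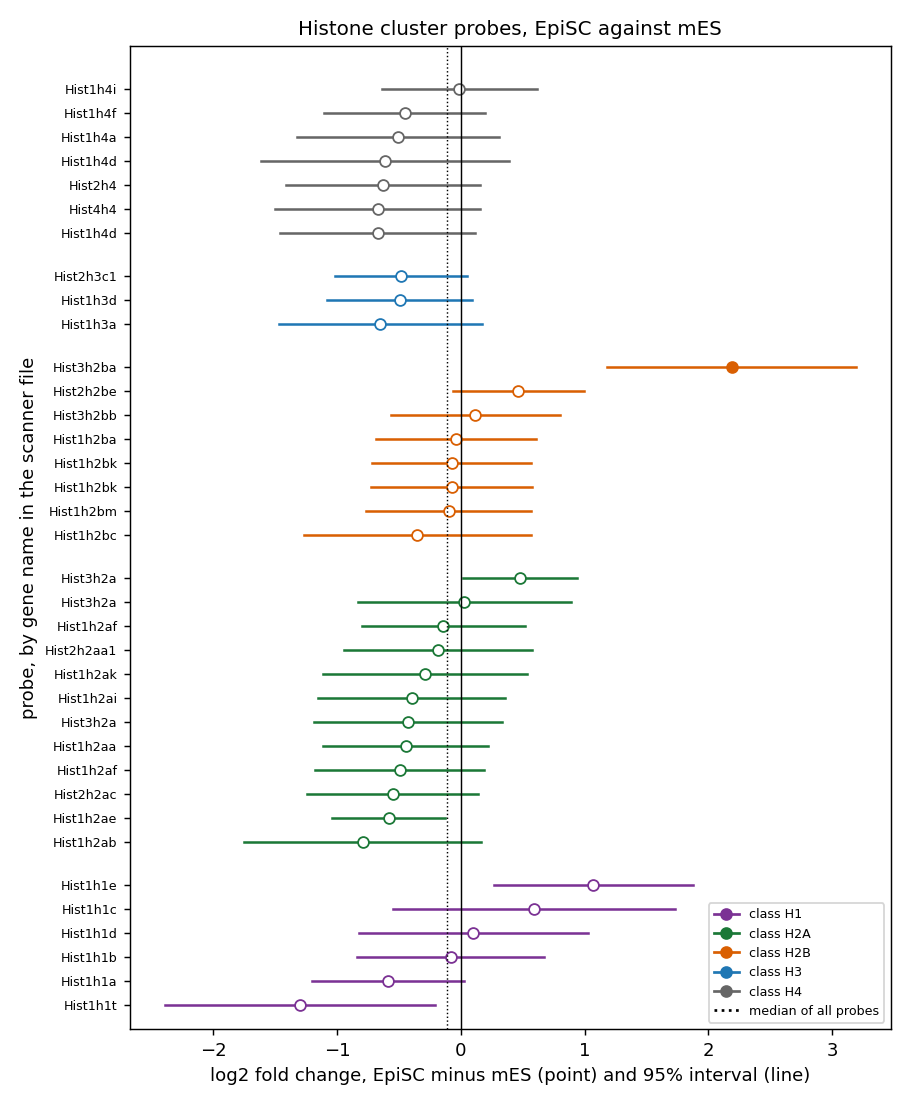
Log2 difference of EpiSC minus mES (x axis) with its 95% interval for each of the 36 histone probes tested (y axis), coloured by class; filled points passed the test and open points did not, and the dotted line is the median of all probes. Hist3h2ba at 2.19 is the only filled point, and all H3 and H4 points lie below 0 with intervals that include 0 (Hist1h4i turns to 0.078 under median scaling).

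Class H1, the linker histones, had differences from -1.30 to 1.07, with 3 of 6 probes above 0 and a median of 0.01. Hist1h1e (H1f4), a main H1 of dividing cells, had scaled signals of 1.92, 1.76 and 0.81 on mES replicates 1 to 3 and 2.61, 2.85 and 2.24 on EpiSC replicates 1 to 3. All EpiSC arrays were above all mES arrays, and mES replicate 3 was the lowest of the 6. The means were 1.5 ± 0.60 in mES and 2.57 ± 0.31 in EpiSC (SD, n = 3 each) and the difference was 1.07 (SE 0.34, adjusted p = 0.0581), which missed the threshold. It passed in 7 of 20 other ways of processing or of choosing arrays, and each of these 7 kept all 6 arrays. Among them were median scaling (adjusted p = 0.0279), quantile normalization (0.0443) and the fit with slide as a random block (0.00238, where 57.1% of all probes passed). That fit had an estimated correlation of -0.69 within slides, which variation shared by a slide would not give, so its calls are not firmer evidence. With 1 array left out the Hist1h1e difference ran from 0.73 (without mES replicate 3) to 1.28 (without mES replicate 1). It did not pass in any of these fits (adjusted p of 0.0615 to 0.142) or with the EpiSC-7 arrays averaged (0.0962). Nor did it pass with only the arrays at position 4 (0.0626) or in the fit of the 4 arrays not low in fibroblast markers (0.129).

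Hist1h1t (H1f6), the linker histone known from spermatocytes, had a difference of the opposite sign, with scaled signals of -3.10, -2.72 and -3.89 on mES replicates 1 to 3 and -4.07, -4.13 and -5.42 on EpiSC replicates 1 to 3. The groups did not overlap, and EpiSC replicate 3 was the lowest array. The probe was dim, with linear signals of 19.3 to 104 over the 6 arrays, though well above background on all of them. The difference was -1.30 (SE 0.46, adjusted p = 0.0781), again short of the threshold, and it passed in 4 of the 20 alternatives. Its size moved: it was -0.86 without EpiSC replicate 3, -0.74 with normexp background correction, where it passed (adjusted p = 0.0312), and -0.61 in the fit of the 4 arrays not low in fibroblast markers. Over all alternatives the adjusted p ran from 0.0072 to 0.307. Beside it, all 5 testis and germ cell markers fixed for comparison (Ddx4, Dazl, Sycp3, Stra8 and Mael) were lower in EpiSCs. Their part in the Hist1h1t value was not tested.

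The other 4 tested H1 probes gave overlapping groups. Hist1h1c (H1f2), one of the cluster genes known to make polyadenylated messages, read -0.61, -1.45 and 0.31 on mES replicates 1 to 3 and 0.58, -0.28 and -0.28 on EpiSC replicates 1 to 3. Its spread among mES lines, an SD of 0.88, was larger than its difference of 0.59, which gave adjusted p of 0.383. Within mES it was lowest on replicate 2, the mES array lowest in fibroblast markers, and highest on replicate 3; the part of feeder cells in this was not tested. Hist1h1a (H1f1) had a difference of -0.59 (SE 0.26, adjusted p = 0.134), with means of -0.01 ± 0.23 in mES and -0.59 ± 0.40 in EpiSC (SD, n = 3 each). For Hist1h1b (H1f5) the difference was -0.08 (SE 0.32, adjusted p = 0.862), and for the 1 tested probe of Hist1h1d (H1f3) it was 0.10 (SE 0.39, adjusted p = 0.863).

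**Figure D2:**
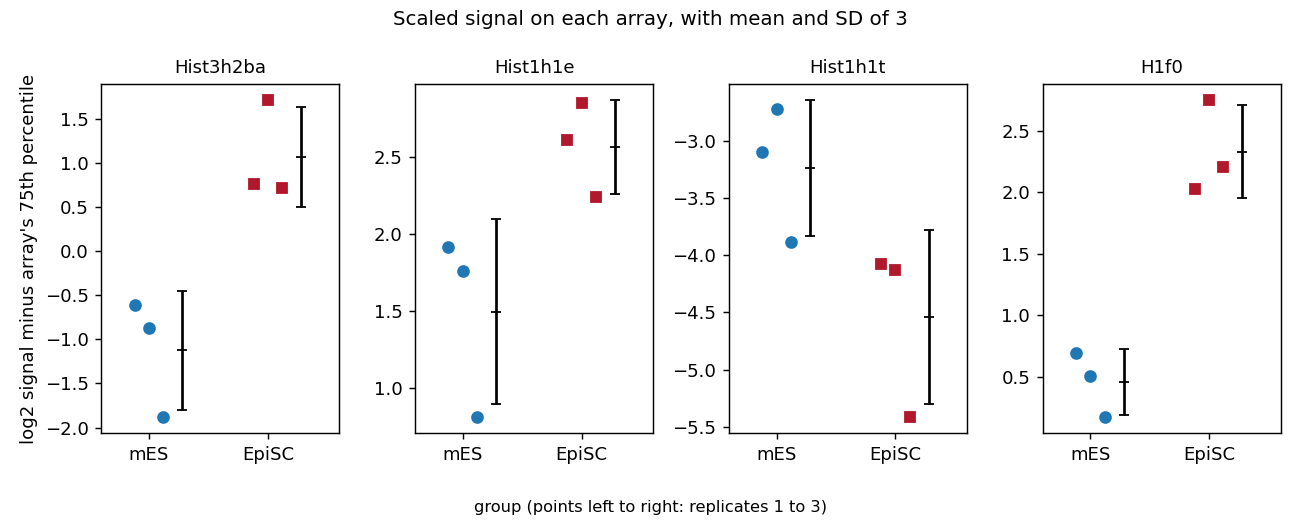
Scaled signal (y axis, log2 relative to the array's 75th percentile) on each mES and EpiSC array (x axis, points from left to right are replicates 1 to 3) for Hist3h2ba, Hist1h1e, Hist1h1t and H1f0; crosses and bars are the mean and SD of 3 arrays. In all 4 panels the groups do not overlap, with EpiSC above mES for Hist3h2ba, Hist1h1e and H1f0 and below for Hist1h1t.

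Class H2A, the core histone that pairs with H2B, had a median difference of -0.41, with 10 of 12 probes below 0 and none past the threshold. Hist1h2ae (H2ac8) was the only one with all EpiSC arrays below all mES arrays, at -3.23, -3.26 and -3.55 on mES replicates 1 to 3 and -4.12, -3.71 and -3.97 on EpiSC replicates 1 to 3. Its difference was -0.58 (SE 0.19, adjusted p = 0.0657). Hist1h2ab (H2ac4) had the lowest value of the class, -0.79, with an SE of 0.40 and adjusted p of 0.183. Its arrays read 1.39, 1.56 and 0.78 on mES replicates 1 to 3 and 0.37, 1.21 and -0.23 on EpiSC replicates 1 to 3, so passage 20 of EpiSC-7 lay among the mES arrays and passage 25 below all others.

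Hist1h2aa (H2ac1), the H2A gene known for its testis form TH2A, read 7.73, 7.74 and 7.35 on mES replicates 1 to 3 and 7.04, 7.69 and 6.75 on EpiSC replicates 1 to 3, and its probe was bright on every array. The difference was -0.45 (SE 0.28, adjusted p = 0.271). A Hist1h2af (H2ac10) probe ran almost level with it: the difference between the 2 probes varied by only 0.124 over the 6 arrays. Where H2A copies are near identical, which copy a probe reads is uncertain, and the probe sequences are not given in the sources used here. The brightness of the Hist1h2aa probe can therefore not be assigned to the testis form. Hist2h2ac (H2ac20) read 7.22, 7.10 and 6.70 on mES replicates 1 to 3 and 6.35, 6.98 and 6.04 on EpiSC replicates 1 to 3, a difference of -0.55 (SE 0.29, adjusted p = 0.196). Differences of the other Hist1 and Hist2 probes of the class were -0.50 and -0.14 for the 2 probes of Hist1h2af, -0.40 for Hist1h2ai, -0.29 for Hist1h2ak and -0.18 for Hist2h2aa1.

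Hist3h2a (H2aw), the H2A gene of the small Hist3 cluster, had 3 probes that did not give 1 direction. The dimmest read -1.40, -1.80 and -1.43 on mES replicates 1 to 3 and -0.90, -1.18 and -1.11 on EpiSC replicates 1 to 3, with no overlap and a difference of 0.48 (SE 0.19, adjusted p = 0.108). The brightest read 5.39, 6.54 and 6.01 on mES replicates 1 to 3 and 5.94, 6.49 and 5.59 on EpiSC replicates 1 to 3, a difference of 0.03 (SE 0.36, adjusted p = 0.960). The third gave -0.43 (SE 0.32, adjusted p = 0.349). None passed the test, and the interval of the dimmest, 0.02 to 0.94, was the only one of the 3 above 0.

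Class H2B held the 1 histone gene that passed the test. Hist3h2ba (H2bu2), an H2B gene of the Hist3 cluster, read -0.61, -0.87 and -1.89 on mES replicates 1 to 3 and 0.76, 1.72 and 0.72 on EpiSC replicates 1 to 3. Every EpiSC array was above every mES array, with passage 20 of EpiSC-7 highest and mES replicate 3 lowest. The means were -1.12 ± 0.67 in mES and 1.06 ± 0.57 in EpiSC (SD, n = 3 each), and the difference was 2.19 (SE 0.42, adjusted p = 0.0129), 4.56-fold higher in EpiSCs, with a 95% interval of 1.18 to 3.19. In linear signal the probe ran from 167 to 2234 over the 6 arrays. The call stood with each array left out in turn, at differences of 1.81 to 2.44, and in 19 of 20 alternatives. It did not pass in a fit of the 4 arrays that were not low in fibroblast markers, chosen after the data were seen, where the difference was 2.49 and the adjusted p was 0.0685; in that fit 6.82% of all probes passed.

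No other H2B probe passed the test. The other Hist3 gene of the class, Hist3h2bb (H2bu1-ps, now named as a pseudogene), had a difference of 0.12 (SE 0.29, adjusted p = 0.786). Hist2h2be (H2bc21), known for a polyadenylated form in differentiated cells, read -3.06, -3.10 and -3.0 on mES replicates 1 to 3 and -2.50, -2.28 and -2.99 on EpiSC replicates 1 to 3, with no overlap and a difference of 0.46 (SE 0.22, adjusted p = 0.161). Hist1h2ba (H2bc1), the gene of the testis form TH2B, read -0.14, -0.12 and -0.05 on mES replicates 1 to 3 and -0.52, 0.43 and -0.33 on EpiSC replicates 1 to 3, a difference of -0.04 (SE 0.27, adjusted p = 0.925). Its mES arrays had an SD of 0.05 and its EpiSC arrays an SD of 0.50. The 2 probes of Hist1h2bk and the probe of Hist1h2bm gave differences of -0.07, -0.08 and -0.10, and Hist1h2bc gave -0.35 (SE 0.38, adjusted p = 0.520). Over the 8 H2B probes the median was -0.06, with 5 below 0.

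Some H2B probes with different names ran in parallel from array to array. The difference between a Hist1h2bk probe and the Hist1h2bm probe varied by 0.0798 over the 6 arrays, and that between Hist1h2ba and the same Hist1h2bk probe by 0.103. The median of this width was 1.16 over the 28 H2B pairs, 0.704 over 66 H2A pairs, 0.398 over 21 H4 pairs, 1.06 over 3 H3 pairs and 2.57 over 15 H1 pairs. Over 497 pairs of histone probes from different classes it was 1.17. By these medians pairs of H4 and H2A probes ran closer than pairs across classes, H2B and H3 pairs were about level with them, and pairs of H1 probes, the most divergent class, ran further apart. The H2B median joins unlike pairs. Among Hist1h2ba, the Hist1h2bk probes, Hist1h2bm and Hist3h2bb every pair had a width of 0.0798 to 0.316. Every pair with Hist3h2ba, Hist2h2be or Hist1h2bc had a width of 0.973 to 4.44. Probes of near-identical copies may read the same messages, which was not tested, so the probes of 1 class cannot be taken as independent of each other.

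The bases before the start of 4 members are shown because Hist3h2ba and Hist3h2a lie in 1 cluster, Hist1h2bk is an H2B gene that did not pass the test, and Hist1h1e is the H1 gene with the highest value. They are RefSeq sequences, build GRCm38.p6, 250 bases ending at the base before the start, 5′ to 3′ on the gene's strand. Capitals mark the letters CCAAT, ATTTGCAT (the octamer) and TATAAA on either strand, and no match overlaps another. Hist3h2ba is at chr11:58948661-58948910 (plus strand), Hist3h2a at chr11:58954435-58954684 (plus), Hist1h2bk at chr13:22035571-22035820 (plus) and Hist1h1e at chr13:23622559-23622808 (minus).
Hist3h2ba: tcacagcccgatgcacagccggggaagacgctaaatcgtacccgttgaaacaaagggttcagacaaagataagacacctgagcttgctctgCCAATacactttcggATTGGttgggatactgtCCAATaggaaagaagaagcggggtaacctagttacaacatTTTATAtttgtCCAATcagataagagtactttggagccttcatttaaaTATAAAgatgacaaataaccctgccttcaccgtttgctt
Hist3h2a: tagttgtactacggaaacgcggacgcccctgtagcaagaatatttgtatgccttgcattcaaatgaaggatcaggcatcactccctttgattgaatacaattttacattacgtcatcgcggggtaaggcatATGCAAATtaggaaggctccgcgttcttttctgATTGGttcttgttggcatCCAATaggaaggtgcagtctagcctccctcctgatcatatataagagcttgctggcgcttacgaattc
Hist1h2bk: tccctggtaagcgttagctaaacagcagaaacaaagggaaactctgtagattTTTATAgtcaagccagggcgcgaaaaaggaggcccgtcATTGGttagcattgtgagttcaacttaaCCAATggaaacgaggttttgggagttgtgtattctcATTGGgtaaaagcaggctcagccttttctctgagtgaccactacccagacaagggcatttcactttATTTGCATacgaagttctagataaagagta
Hist1h1e: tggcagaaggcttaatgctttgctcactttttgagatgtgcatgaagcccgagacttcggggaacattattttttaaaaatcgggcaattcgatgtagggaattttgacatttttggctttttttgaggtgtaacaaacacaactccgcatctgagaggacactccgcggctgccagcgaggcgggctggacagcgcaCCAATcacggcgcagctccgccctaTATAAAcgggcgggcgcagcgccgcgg

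The Hist3h2ba stretch holds 4 matches to CCAAT, 2 to TATAAA and 0 to the octamer. Hist3h2a holds 2, 0 and 1 of these, Hist1h2bk 3, 1 and 1, and Hist1h1e 1, 1 and 0. RefSeq promoters were found for 29 of the 34 histone genes. A histone gene is counted if any of its promoters holds the letters, whereas the shares of all are counted per promoter. CCAAT was found in 25 of the 29 (86.2%), against 33.8% of all 32851 promoters of that length, and TATAAA in 16 (55.2%) against 12.4%. By class, CCAAT was found for all 6 H1, all 11 H2A and all 5 H2B genes, but for 1 of 2 H3 and 2 of 5 H4 genes. The octamer, the letters read by POU factors of the Oct family, was in 10 (34.5%), against 1.6% of all. It was found for 6 of 11 H2A and 4 of 5 H2B genes and for 0 of the H1, H3 and H4 genes. Hist3h2ba was the H2B gene without it. A match is a string of letters and not a binding site, and no binding was measured here.

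The neighbours of Hist3h2ba in the RefSeq annotation (GRCm38.p6), looked up after its value was seen, did not share 1 direction. Rnf187, the gene on one side, had a difference of 0.29 (adjusted p = 0.298). Trim17, on the other, had 1.05 with an SE of 0.63 (adjusted p = 0.25). Further along, Zfp39 was lower in EpiSCs at -0.76 (adjusted p = 0.0436). For Trim11, 1 of 2 probes was lower at -0.76 (0.0371) and the other gave -0.63 (0.0619). For Iba57, 1 of 2 probes was higher at 1.03 (0.0298) and the other had the opposite sign at -0.33 (0.281).

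Class H3 had 3 probes, all with differences below 0 and none past the threshold. Hist1h3d (H3c4) read 5.35, 5.30 and 4.93 on mES replicates 1 to 3 and 4.32, 5.06 and 4.72 on EpiSC replicates 1 to 3, a difference of -0.49 (SE 0.25, adjusted p = 0.177). Hist2h3c1 (H3c14) read 6.04, 6.03 and 5.60 on mES replicates 1 to 3 and 5.14, 5.69 and 5.39 on EpiSC replicates 1 to 3, a difference of -0.48 (SE 0.22, adjusted p = 0.152). EpiSC-5 was the lowest array for both, and passage 20 of EpiSC-7 overlapped the mES arrays. Hist1h3a (H3c1) gave -0.65 (SE 0.34, adjusted p = 0.198), with EpiSC-5 again lowest at -2.68.

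Class H4, among the most conserved of the core histones, had a median of -0.61, with 7 of 7 probes below 0 and none past the threshold. This was the lowest of the 5 class medians on the full set of arrays, but the H3 median was below it without EpiSC replicate 3 (-0.50 for H3 and -0.30 for H4), with only the arrays at position 4 (-0.62 and -0.49) and in the fit of the 4 arrays not low in fibroblast markers (-0.45 and -0.19). Hist1h4d (H4c4) had 2 probes, and the brighter one read 4.43, 4.48 and 3.89 on mES replicates 1 to 3 and 3.34, 4.25 and 3.19 on EpiSC replicates 1 to 3. EpiSC-5 and passage 25 of EpiSC-7 were below every mES array, and passage 20 lay between mES replicates 3 and 1. Its difference was -0.67 (SE 0.33, adjusted p = 0.172); without EpiSC replicate 2 it was -1.0 and passed the test (adjusted p = 0.0441). Hist4h4 (H4f16), alone in its cluster, gave -0.67 (SE 0.35, adjusted p = 0.191) and Hist2h4 (H4c14) -0.63 (SE 0.33, adjusted p = 0.196). Hist1h4a, Hist1h4f and the second Hist1h4d probe had differences of -0.51, -0.46 and -0.61, and Hist1h4i, at -0.01 and 0.078 under median scaling, was the exception.

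The class medians of H2A, H3 and H4 stayed below 0 in all 20 alternatives, at -0.69 to -0.10 for H2A, -0.67 to -0.21 for H3 and -0.95 to -0.19 for H4. The class medians of H1 and H2B changed sign among the alternatives. The median over all probes was also below 0 in each alternative, from -0.27 with no filter on dim probes to -0.02 with quantile normalization. In the fit of the 4 arrays not low in fibroblast markers, the H2A median was -0.10 and that of all probes -0.05. By cluster, the medians were -0.40 over 25 Hist1 probes, -0.48 over 5 Hist2 probes and 0.12 over 5 Hist3 probes.

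Arrays of 1 group differed among themselves. The median deviation of the 36 probes from each probe's mean over the 6 arrays was 0.20, 0.37 and -0.05 on mES replicates 1 to 3 and -0.39, 0.36 and -0.38 on EpiSC replicates 1 to 3. The median over all probes was between -0.13 and 0.14 on every array. Over the pooled set, EpiSC replicate 2, passage 20 of EpiSC-7, was thus level with the higher mES arrays, but the classes differed. The H2B median was 0.53 on it, above every mES array (-0.10, -0.01 and 0.10 on replicates 1 to 3). The H3 median was 0.11 on it, below mES replicates 1 and 2 (0.39 and 0.38). EpiSC replicate 2 was the highest EpiSC array for 32 of 36 histone probes, against 44.1% of all probes. mES replicate 3 was the lowest mES array for 25 of 36, against 49.9% of all. By class this held for 7 of 7 H4, 10 of 12 H2A, 5 of 6 H1 and 2 of 3 H3 probes, but for only 1 of 8 H2B probes.

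**Figure D3:**
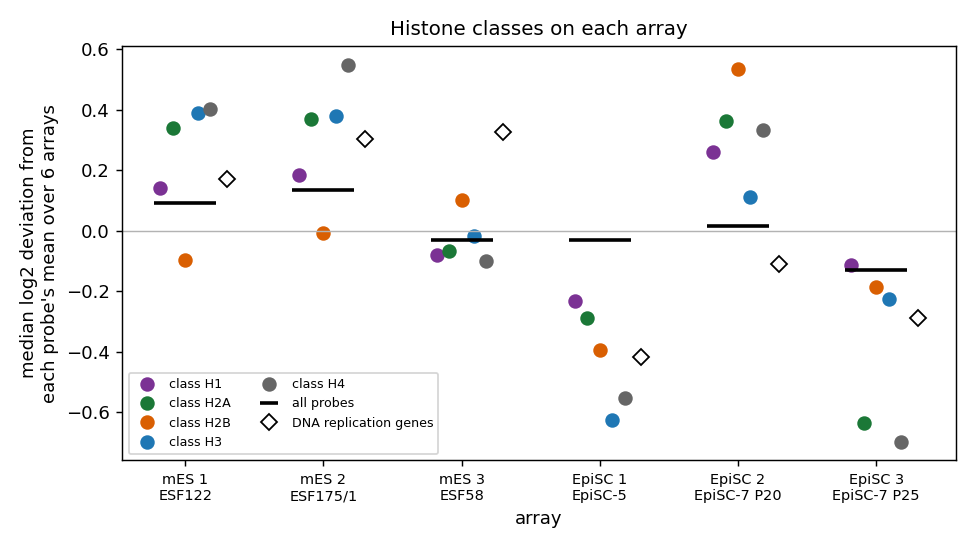
Median log2 deviation from each probe's mean over the 6 arrays (y axis) on each array (x axis) for the 5 histone classes (coloured points), all probes (bars) and the DNA replication genes (open diamonds). H2A and H4 are high on mES 1, mES 2 and EpiSC 2 and low on EpiSC 1 and EpiSC 3. H3 is high on mES 1 and mES 2 (0.39 and 0.38), at 0.11 on EpiSC 2, and low on EpiSC 1 and EpiSC 3. H2B lies between -0.10 and 0.10 on the mES arrays, at 0.53 on EpiSC 2, and below 0 on EpiSC 1 and EpiSC 3. H1 is at 0.14, 0.18 and -0.08 on mES 1 to 3 and at -0.23, 0.26 and -0.11 on EpiSC 1 to 3. The replication genes are above 0 on all 3 mES arrays and below 0 on all 3 EpiSC arrays.

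The 2 passages of line EpiSC-7 differed in 1 direction across nearly the whole histone set. This contrast was chosen after the values were seen, has 1 array on each side and so has no test. Passage 20 was above passage 25 for 35 of 36 histone probes, with a median of 0.77 and a range of -0.07 to 1.54, and by at least 0.5 for 29 of 36. Over all probes 62.3% were higher at passage 20, with a median of 0.16, and 23.1% by at least 0.5. Among probes as bright as the array's 75th percentile on average, 55.2% were higher, with a median of 0.05. By class the median shift was 1.06 for H4, 0.94 for H2A, 0.74 for H2B, 0.61 for H1 and 0.30 for H3. Hist3h2ba was 1.00 higher at passage 20, and the exception was the dimmest Hist3h2a probe at -0.07.

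With median scaling 34 of 36 histone probes were higher at passage 20 (median 0.55, against 44.1% of all probes). The count was 33 with quantile normalization (0.72, against 52.1%) and 35 with normexp background correction (0.72, against 66.0%). The 2 arrays shared a slide and lay at positions 4 and 1 on it, and passage 25 was the EpiSC array lowest in fibroblast markers; the part of position and of feeder cells in the shift was not tested. The 2 mES arrays that also shared a slide at positions 4 and 1 (replicates 1 and 3) differed the same way for 26 of 36 histone probes, with a median of 0.37, against 60.3% and 0.12 for all probes.

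**Figure D4:**
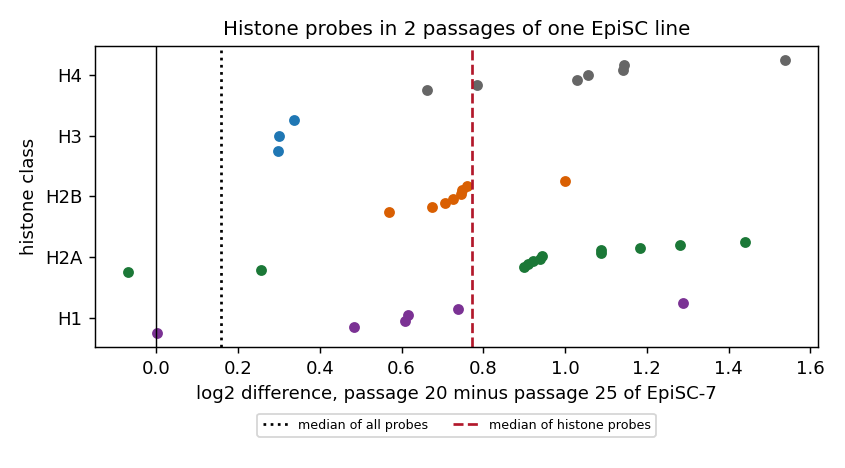
Log2 difference of passage 20 minus passage 25 of line EpiSC-7 (x axis) for each of the 36 histone probes, by class (y axis, 1 array per passage, points set apart vertically for display); the dotted and dashed lines are the medians of all probes and of the histone probes. All but 1 point lie above 0, and most H4 and H2A points lie above the histone median of 0.77.

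Histone genes outside the clusters, many of which make polyadenylated messages and are less tied to S phase, were compared on the same arrays. For these and the lists below, each gene is counted by its brightest probe. Of 17 listed, 14 were tested, and 2 (14.3%) were higher in EpiSCs and 0 lower, against 11.8% and 14.3% of all probes, with a median of -0.06 that was 0.03 under median scaling and 0.26 under quantile normalization. H1f0, the linker histone known for building up in cells that leave the cycle or differentiate, read 0.69, 0.50 and 0.17 on mES replicates 1 to 3 and 2.03, 2.76 and 2.21 on EpiSC replicates 1 to 3. Its difference was 1.87 (SE 0.26, adjusted p = 0.00423), 3.67-fold higher in EpiSCs with no overlap, and its 2 other probes gave 2.61 and 2.58; it passed in all 20 alternatives. The count higher was 4 with quantile normalization, normexp and the mean-variance trend, and 6, with 2 lower, with slide as a random block. It was 1 with only the arrays at position 4, in the 4-array fit, and without mES replicate 1, EpiSC replicate 1 or EpiSC replicate 3, and 3 without EpiSC replicate 2. H2afy3 was higher by 0.96 (SE 0.26, adjusted p = 0.0401), but its adjusted p was 0.0832 to 0.123 when mES replicate 1 or 2 or EpiSC replicate 1 or 3 was left out. The replacement H3.3 gene H3f3a had 3 probes that did not give 1 direction, at 0.23, -0.16 and -0.20, and H3f3b had 2, at -0.32 and -0.06. H2afz had a difference of -0.21, H2afx of -0.36 and Cenpa, the centromeric H3, of 0.08, and no probe of these 5 genes passed the test.

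Of 25 genes that make or finish histone messages, 4 (16.0%) were lower in EpiSCs and 0 higher by their brightest probes, against 14.3% and 11.8% of all probes, with a median of -0.16. The probes of 3 of the 16 genes with several gave different calls. With any probe counted, 4 genes had a lower call and 2 a higher one, and with every probe required to pass, 2 were lower and 0 higher. Slbp, the stem-loop binding protein, read 3.92, 4.14 and 3.96 on mES replicates 1 to 3 and 3.73, 3.97 and 3.84 on EpiSC replicates 1 to 3 and had a difference of -0.16 (SE 0.17, adjusted p = 0.507). Npat had -0.03 (SE 0.16, adjusted p = 0.892) and Casp8ap2, its partner at histone genes, -0.29 (SE 0.19, adjusted p = 0.278). Lower in EpiSCs was Ccne1, the cyclin E whose kinase acts on NPAT, at -1.18 (SE 0.18, adjusted p = 0.00611). Lsm11, of the U7 particle that guides the cut, was lower at -1.10 (SE 0.29, adjusted p = 0.0367). For Nfyb, a subunit of the factor that binds CCAAT, the brighter probe was lower at -0.83 (SE 0.20, adjusted p = 0.0276) and the other gave -0.41 (adjusted p = 0.111). Cstf2, of the cleavage machinery, had probes with opposite calls: the brightest was lower at -1.0 (SE 0.23, adjusted p = 0.0238), the dimmest was higher at 0.85 (SE 0.19, adjusted p = 0.0201), and the third gave 0.21 (adjusted p = 0.465), so its direction is not settled. Yy1, a factor known to bind histone genes among many others, gave -0.14 and -0.15 in 2 probes and 1.10 in the third (adjusted p = 0.00838). Ccne1 passed with any 1 array left out. The count of 4 fell to 1 without mES replicate 1, mES replicate 2, EpiSC replicate 1 or EpiSC replicate 3; without these, Lsm11 had adjusted p-values of 0.100 to 0.114 and the brightest Cstf2 probe of 0.0701 to 0.0815. Without mES replicate 3 the count was 6.

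Among 17 histone chaperones, which carry histones to and from DNA, 1 (5.88%) was higher and 3 (17.6%) were lower, against 11.8% and 14.3% of all probes, with a median of -0.21 (0.03 under quantile normalization). Nap1l1, a carrier of H2A and H2B, was higher by 0.94 (adjusted p = 0.00903). Chaf1b, of the complex that loads H3 and H4 behind the fork, was lower at -0.87 (adjusted p = 0.0192), as were Daxx, a carrier of H3.3, at -0.81 (0.0143) and Supt6 at -0.63 (0.0496). Asf1a, a carrier of H3 and H4, gave 0.07 (adjusted p = 0.818) in its bright probe and 1.09 (0.0128) in its dim one. Nap1l1 passed with any 1 array left out, whereas the count of lower genes was 0 without mES replicate 1 or EpiSC replicate 1, 1 without mES replicate 2 or EpiSC replicate 3 and 2 without EpiSC replicate 2.

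Of 42 genes that license replication origins or copy DNA, 15 (35.7%) were lower in EpiSCs and 0 higher, against 14.3% and 11.8% of all probes, with a median of -0.47. Of the 15, Pole had a second probe that did not pass (-0.46, adjusted p = 0.366). The count was 7 without mES replicate 1, 6 without mES replicate 2, 4 without EpiSC replicate 1 and 6 without EpiSC replicate 3. With 1 array left out the median stayed between -0.54 and -0.43. Under median scaling the median was -0.38, with 11 genes lower, and under quantile normalization it was -0.28, with 12 lower. Orc1, of the origin recognition complex, read 1.70, 1.73 and 1.99 on mES replicates 1 to 3 and 0.53, 0.55 and 0.27 on EpiSC replicates 1 to 3, a difference of -1.36 (SE 0.18, adjusted p = 0.00392). Pola1, the primase-linked polymerase, had -1.34 (SE 0.22, adjusted p = 0.00751) and Cdt1, a licensing factor, -1.15 (SE 0.19, adjusted p = 0.00841). Pcna, the sliding clamp, had -0.47 (adjusted p = 0.170) and Mcm2, of the helicase, -0.29 (adjusted p = 0.323, with its value missing on mES replicate 3), and neither passed. The median of this list was positive on every mES array (0.17, 0.30 and 0.33) and negative on every EpiSC array (-0.42, -0.11 and -0.29). On mES replicate 3 the replication list was at its highest while the histone set was at -0.05. Class H2B, at 0.10 there, was also at its highest among the mES arrays.

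Of 14 genes of cell cycle arrest, 3 (21.4%) were lower in EpiSCs, Ccng1 at -2.31, Cdkn2a at -1.89 and Cdkn1a at -1.61, and 1 (7.14%), Btg2, was higher at 1.12, against 14.3% and 11.8% of all probes. The adjusted p-values were 0.0124, 0.0116, 0.0128 and 0.0401. The second Ccng1 probe was also lower, at -0.84 (adjusted p = 0.0293). The 2 other Btg2 probes gave 0.22 (0.485) and 0.62 (0.0956) and did not pass. Rbl2, a pocket protein related to RB, gave -1.57 (0.110) in its bright probe and -2.06 (0.00703) in the other. The called Btg2 probe lost the call, at adjusted p-values of 0.0623 to 0.105, without any 1 array other than EpiSC replicate 3, and the other 3 kept it each time. Cdkn1a codes for p21, an inhibitor of the kinases that start S phase. The median of the 14 was -0.44. In the fit of the 4 arrays not low in fibroblast markers, 0 genes of the processing, chaperone, replication and arrest lists passed, with medians of -0.09, -0.23, -0.54 and -0.39. With only the arrays at position 4, the counts lower in these 4 lists were 3, 0, 2 and 0, and with slide as a random block they were 6, 6, 25 and 7.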

How the data were processed

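Cy3-labelled total RNA from 6 cultures was read on Agilent arrays of 1 colour, per the labels' protocols. The authors deposited linear spot intensities, made with Agilent Feature Extraction 9.1.3.1 per the file headers, background-adjusted and detrended within the array and not normalized between arrays. The deposited value table held the same intensity to within 0.00716 on the log2 scale, so it is linear, not centred and no ratio. Its column medians were 78.9, 84.9 and 68.7 in mES and 117, 80.25 and 82.95 in EpiSC, in replicate order.

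Spots flagged as outliers were dropped, log2 signals were scaled to each array's 75th percentile, and spots of 1 probe were averaged. Probes entered if all arrays of either group showed them well above background, and were fitted with limma 3.58.1 in R 4.3.3 (lmFit and eBayes, two-sided, 4 residual degrees of freedom), and the script was tested on simulated data. The number of arrays limits the precision. The arrays of mES were compared with those of EpiSC without pairing. Alternatives were other scalings, background corrections, filters, slide or position as a block, and leaving out arrays.

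The members and the lists were chosen with earlier results of these data known. Named were all H1 members, the testis-type members, members past the threshold or with disagreeing probes, and up to 3 genes per list and direction past the threshold with a fixed set of others; further members were named after their values were seen. A list gene with several probes is given by the brightest one. Gene names are those of the array, with the RefSeq symbol in brackets. Probe and protein sequences were not used here.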

Additional observations from a re-analysis of the deposited data

How the results depend on the processing

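No paired analysis was possible because the labels give no numbers that pair mES with EpiSC cultures. With 3 arrays per group from 2 or 3 lines, slides that each held 1 group and near-identical gene copies, the group difference rests on few independent values, and the cause of each change below was not tested.

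The count of histone probes higher in EpiSCs, 1 as reported, was 2 under median scaling, quantile normalization, normexp background correction, the filter on all 6 arrays, the mean-variance trend and position as a block, 4 with slide as a random block, and 0 in the fit of the 4 arrays not low in fibroblast markers, which was chosen after seeing the data. The count lower, 0 as reported, was 2 with normexp, 4 with no filter on dim probes, 6 with slide as a random block, and 1 with position as a block and with only the arrays at position 4. Without the filter 44 histone probes were tested, the 8 dim ones included. Of those 8, the Hist1h2be probe and 1 probe each of Hist1h1d, Hist2h2aa2 and Hist4h4 had EpiSC arrays all below the mES arrays. These probes were not well above background on any array, and their linear signals ran from 2.41 to 7.07. At such signals a lower call is no evidence of less histone message. Leaving out 1 array in turn gave 1 higher each time and 0 to 1 lower. Slide as a random block had an estimated correlation of -0.69 within slides and called 7278 probes higher and 9604 lower among all tested, against 3473 and 4215 as reported. Variation shared by a slide would not give a correlation below 0, so the calls of this fit are not firmer than those reported. Only the arrays at position 4 gave 1789 and 2166, no filter 3676 and 8564, and the 4 arrays 1119 and 948. Leaving out 1 array gave 1922 to 3086 higher and 2135 to 4057 lower, with the fewest higher and lower without EpiSC replicate 3. The split of higher against lower among all probes shifted from 3473 and 4215 to 3340 and 5785 with normexp.

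Values that turned sign had not passed the test in either setting. With median scaling the differences were 0.0052 for Hist1h1b, 0.049 for Hist1h2ba, 0.015 and 0.014 for Hist1h2bk, 0.078 for Hist1h4i and 0.056 for Npat, and with quantile normalization 0.21 for H2afz, 0.070 for H3f3b, 0.14 for Hist1h2af and 0.025 for Slbp. With the EpiSC-7 arrays averaged they were -0.10 for Hist1h1d and 0.0039 for Hist1h4i. Slide as a random block gave 0.11 for Hist1h1b, 0.069 for Hist1h2ba, 0.074 and 0.044 for Hist1h2bk, 0.036 for Hist1h2bm and 0.090 for Hist1h4i. Only the arrays at position 4 gave 0.083 for Hist1h2ba, 0.23 for Hist1h2bc, 0.0099 and 0.060 for Hist1h2bk, 0.024 for Hist1h2bm and 0.060 for Hist1h4i. The 4 arrays gave 0.22 for Hist1h1b, 0.15 for Hist1h2af, 0.13 for Hist1h2ak, 0.047 for Hist1h2ba, 0.025 for Hist1h2bk, 0.37 for Hist1h4i and 0.16 for Hist2h2aa1. With 1 array left out, the ranges were -0.11 to 0.20 for Cenpa, -0.67 to 0.0051 for H2afx, -0.36 to 0.13 for Hist1h1b, -0.28 to 0.50 for Hist1h1d, -0.40 to 0.057 for Hist1h2af, -0.63 to 0.011 for Hist1h2ak, -0.33 to 0.15 for Hist1h2ba, -0.33 to 0.15 and -0.36 to 0.12 for Hist1h2bk, -0.39 to 0.11 for Hist1h2bm, -0.16 to 0.19 for Hist1h4i, -0.50 to 0.090 for Hist2h2aa1, -0.26 to 0.31 for a Hist3h2a probe, -0.18 to 0.34 for Hist3h2bb and -0.069 to 0.0094 for Npat, and -0.29 to 0.17 for the H1 median.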
